A study of Canis lupus familiaris with 2 samples.

Results

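Dog chromosome 25 was described in bisulfite sequencing of MDCK cells, a dog kidney line of epithelial origin, as 516 fixed windows of 100 kb out of 22036 on the 38 autosomes. Members are all windows of the chromosome with 50 or more CpG sites that had at least 5 calls in both libraries, which 516 of its 517 windows met. The exception, from 50600001 to 50700000, held 0 such sites, and the member with the fewest, from 28300001 to 28400000, held 54. The chromosome was chosen by its read depth, which had been seen to be low in the TGF-beta library, and its borders at 27000000 and 37000000 were set on the depth ratio of the same 2 libraries. Every value below is therefore a description of these libraries, given without a test. The first segment, up to 27000000, held 270 windows. The middle segment, from there to 37000000, held 100, and the last, from there to the final listed position at 51628840, held 146. Positions are in canFam3, the build named in the submitters' processing notes, and no gene annotation was used.

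The series compared an untreated culture, labelled epithelial and carried for 30 days alongside, with one exposed over 30 days to 5 ng/ml of TGF-beta and labelled mesenchymal. TGF-beta is a growth factor that can turn epithelial cells towards a mesenchymal state. Each group has 1 library from the same line, so differences between the cultures, the treatment and the library preparation cannot be told apart. The labels do not say whether a culture was cloned, and the labelled cell types were not checked here, since genomic DNA calls without annotation name no marker gene.

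In bisulfite sequencing an unmethylated cytosine is read as thymine and a methylated one as cytosine, so that each read over a CpG gives 1 methylated or unmethylated call. The number of calls at a site also follows how much DNA of that place was in the library, together with how well its base composition was recovered. Cytosine methylation in mammals sits mostly at CpG pairs and is copied after replication by a maintenance methyltransferase. In a culture, the level at a site is an average over cells and over the copies of the chromosome within each cell, so an intermediate level arises where copies or cells differ.

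Chromosome 25 was the shallowest autosome in both libraries, and further below the others in the TGF-beta library. Depth was the number of calls per listed site in a window, divided by the median of the 500 autosomal windows nearest in number of listed CpG sites in the same library, so that 1 is the autosomal level for that CpG density. Over its 516 windows the median relative depth was 0.819 in the control and 0.602 with TGF-beta. The exact 95% interval of the median over windows was 0.809 to 0.830 and 0.594 to 0.608, an interval that covers the spread of windows within 1 library only. Among the other 37 autosomes the lowest control median was 0.829, on chromosome 12, and the lowest TGF-beta median was 0.777, on chromosome 7. The gap to the next autosome was thus small in the control and wide with TGF-beta. In the latter, 12 autosomes had medians from 0.777 to 0.880, none lay between 0.9 and 1, 23 lay from 1.02 to 1.19, and chromosomes 13 and 35 were above these. The median log2 ratio of TGF-beta to control relative depth was -0.45 on chromosome 25, which is 26.9% below the control value. The next lowest was -0.33, on chromosome 28, and the other 37 autosomes had a median of -0.03 and a highest value of 0.29, on chromosome 35.

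**Figure D1:**
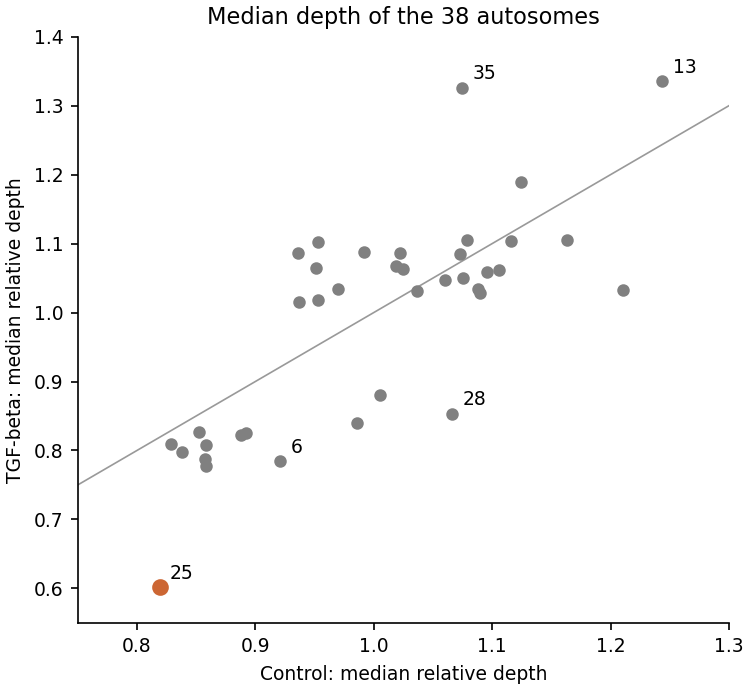
Median relative depth of each of the 38 autosomes in the control library (x axis) and the TGF-beta library (y axis), 1 point per chromosome, with the line of equal values and some chromosomes numbered. Chromosome 25 (orange) is at 0.819 and 0.602, close to other autosomes along the x axis and below all of them along the y axis.

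In calls as deposited, the median window of chromosome 25 had 20.8 calls per listed site in the control and 21.4 with TGF-beta, against 25.3 and 35.8 elsewhere on the autosomes. The TGF-beta library was the deeper one over the genome, with 1019766599 calls against 656122583, and on the windows of chromosome 25 it held 12491031 calls against 10506649, a smaller excess. At single sites the medians were 17 and 21 calls, against 21 and 35 on other autosomes. Of the chromosome's 568564 listed sites, 84.7% had at least 5 calls in both libraries, against 89.9% elsewhere. A further 2.44% were listed in the control only and 0.861% in the TGF-beta library only, against 1.48% and 0.745% elsewhere.

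The low depth ran through the whole chromosome. In the control, 19 of the 516 windows were above 1, and in the TGF-beta library 1 was, from 45000001 to 45100000, at 1.48 and 1.17. A relative depth under 0.7 in the TGF-beta library was found in 456 windows, or 88.4%. The median share of such windows on the other chromosomes was 1.29% and the highest 35.4%, on chromosome 6. The ratio was below 0 in 510 of the 516 windows, made up of 269 of 270, 96 of 100 and 145 of 146 in the 3 segments.

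The segments differed more in the control than in the TGF-beta library. Median relative depth in the control was 0.823 in the first segment, 0.769 in the middle and 0.841 in the last. In the TGF-beta library it was 0.606, 0.602 and 0.588, where the intervals of the first and middle medians overlap (0.596 to 0.619 and 0.589 to 0.622) and that of the last, 0.576 to 0.604, reaches into both. The log2 ratio was -0.45, -0.38 and -0.50 in the same order. The middle segment had the lowest control depth, while its TGF-beta depth lay between those of the others. At like CpG density its TGF-beta depth was the highest of the 3 in the 3 sparser of 4 density classes, at 0.656, 0.637 and 0.591. The first segment had 0.619, 0.6004 and 0.587 there, and the last 0.631, 0.595 and 0.588. In the densest class the middle segment had 0.572, against 0.532 in the first and 0.580 in the last. The middle segment was also uneven. Of its 10 bins of 1 Mb the outermost had ratios of -0.19, next to the first border, and -0.10, next to the second, whereas the other 8 lay between -0.54 and -0.30. The 27 bins of the first segment lay between -0.62 and -0.35 and the 15 of the last between -0.60 and -0.29, so the ranges of the 3 segments overlap.

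**Figure D2:**
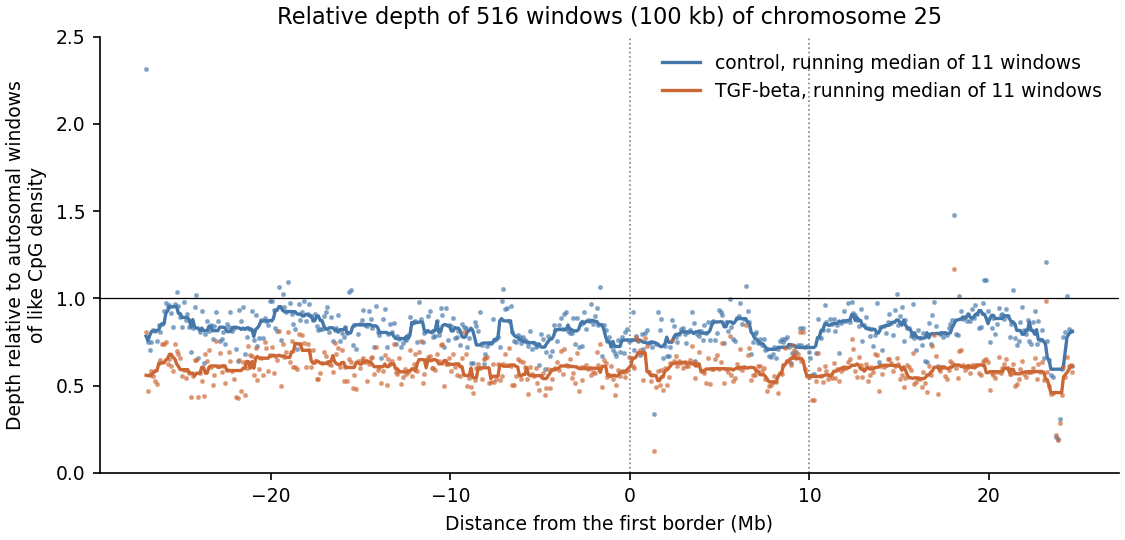
Relative depth of the 516 windows of chromosome 25 by distance from the first border (dotted lines mark both borders), with 1 point per window and library and lines for the running median of 11 windows. The control runs near 0.8 and the TGF-beta library near 0.6 over the whole length, and the lines come closest just inside the 2 borders of the middle segment.

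The windows on either side of each border overlapped in ratio. The 5 windows before 27000000 had a median ratio of -0.42 and the 5 after it -0.21, with ranges of -0.56 to -0.19 and -0.59 to 0.01 that overlap. Before 37000000 the 5 windows had a median of -0.27 and after it -0.39, over -0.39 to -0.04 and -0.44 to -0.26, which overlap too. The windows next to the borders thus do not divide cleanly by segment.

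CpG density mattered for the last segment, which is denser, at a median of 15.9 listed sites per kb against 7.19 in the first and 7.93 in the middle. Without matching on density, its log2 ratio was -0.17 and that of the first segment -0.58, so the order of the segments depends on the matching. The chromosome as a whole gave -0.48 without matching and was still the lowest in ratio and in TGF-beta depth, while its control depth was then the second lowest. With matching, chromosome 25 had ratios of -0.41, -0.43, -0.46 and -0.52 from the sparsest to the densest of 4 equal classes of autosomal windows, and the other autosomes had 0.00, -0.01, -0.02 and -0.01. The departure was present at each density.

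Single windows stood apart from this level. The first 100 kb of the chromosome had a relative depth of 2.31 in the control and 0.808 with TGF-beta, the lowest log2 ratio of the chromosome, at -1.52. Its level was 86.8% in the control and 82.0% with TGF-beta. The window from 28300001, the one with 54 sites, had depths of 0.339 and 0.126 and a ratio of -1.42. Near the end, the windows from 50700001 and 50800001 had depths of 0.207 and 0.216, and of 0.191 and 0.188, so that both libraries were equally low there. They adjoin the 1 window that did not qualify. The highest ratios of the middle segment, 0.09 in each case, were in the neighbouring windows from 36000001 and 36100001.

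Shorter stretches of other chromosomes reached lower ratios. The lowest running median ratio over 100 windows was -0.61 on chromosome 6 and -0.56 on chromosome 3, against -0.52 on chromosome 25 and -0.50 on chromosome 7. On those other chromosomes it covered a stretch, as the chromosome medians show.

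Along the length of chromosome 25, fewer CpG sites were at an intermediate level with TGF-beta than in the control. Among its 376613 sites covered by 10 or more calls in each library, 25.3% (exact 95% binomial interval 25.2 to 25.5) were between 20% and 80% methylated in the control and 20.0% (19.9 to 20.1) with TGF-beta. This is a difference of -5.31 percentage points, against -0.887 on the other autosomes, where the share was 27.3% and 26.5%. Both ends of the scale gained. Sites under 20% were 15.8% in the control and 17.6% with TGF-beta, and sites at 80% or more were 58.9% and 62.4%. On the other autosomes the under 20% share differed by 0.0469 points and the share at 80% or more by 0.840. Intervals of shares treat each site as an independent draw, though neighbouring sites can be read together. Intervals of levels cover counting error of calls only, and PCR reads without molecular identifiers are not independent molecules.

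Because few calls spread a site's measured level, the shares were computed again after drawing calls at random until both libraries had the same number at each site. The intermediate share was then 25.3% and 20.2%, a difference of -5.07 points, against -1.06 on the other autosomes. With 10 calls drawn at each site in each library it was -4.38 against -1.19. Taken by strand with equal calls, it was -4.73 on the plus and -4.91 on the minus strand, against -1.14 and -1.10 elsewhere. At equal calls the chromosomes next to it were chromosome 29, at -2.93, and chromosome 6, at -2.06, and the median of the other 37 was -0.935. Chromosome 13 had the highest value, -0.0467.

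**Figure D3:**
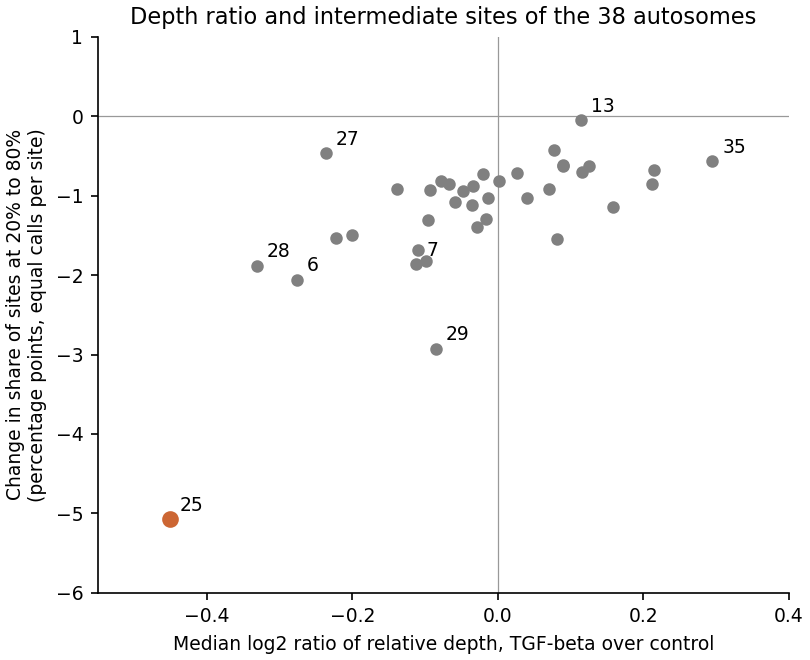
Median log2 depth ratio (x axis) and the change in the share of CpG sites at 20% to 80% in percentage points, with equal calls per site (y axis), for the 38 autosomes, 1 point each. Chromosome 25 (orange) is lowest on both axes, at -0.45 and -5.07. Chromosome 27 has a low ratio with a small change, and chromosome 29 the next lowest change, -2.93, at a ratio of -0.09.

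Taken whole, the 3 segments differed little in this measure. At equal calls the intermediate share was 28.7% in the control and 23.5% with TGF-beta in the first segment, 26.98% and 21.9% in the middle, and 22.5% and 17.5% in the last. The differences were -5.22, -5.08 and -4.97 points, although the segments differ in CpG density and in level. Within classes of level they could differ more. In 100 kb windows from 65% to 80% in the control the differences were -5.44, -4.16 and -7.91 points. In windows at 80% or more they were -2.18, -2.87 and -2.32. All 52 bins of 1 Mb were lower in the TGF-beta library, from -12.3 to -1.48 points with a median of -4.86, and 46 of them, or 88.5%, by 3 points or more. On the other autosomes 75.2% of 2166 bins were lower and 10.3% by 3 points or more. In 46 of the 52 bins the share under 20% and the share at 80% or more were both higher. That count was not taken on the other autosomes, so it has no background here. Both shares were also higher there over all sites, by 0.184 and 0.877 points at equal calls.

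**Figure D4:**
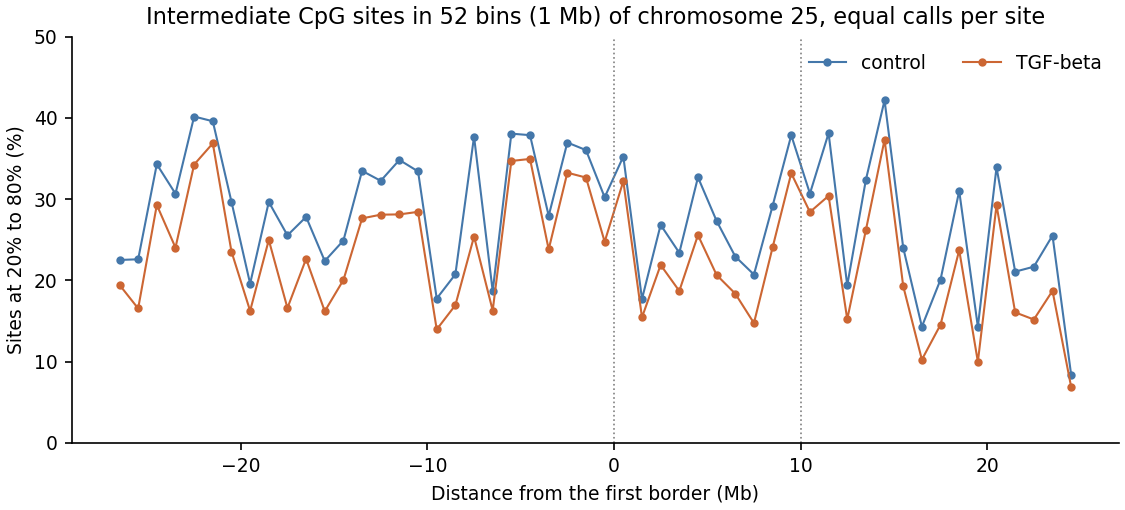
Share of CpG sites at 20% to 80% methylation in each of 52 bins of 1 Mb of chromosome 25, with equal calls per site, by distance from the first border (dotted lines mark both borders). The TGF-beta line lies below the control line in every bin, and the widest gap is in the bin from 19000001 to 20000000.

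The widest gap was in the bin from 19000001 to 20000000, where 37.7% of 5007 sites were intermediate in the control and 25.4% with TGF-beta. There the share at 80% or more went from 46.7% to 56.5% and the share under 20% from 15.6% to 18.1%. The next was from 9000001 to 10000000, at 25.5% and 16.6%. The narrowest was in the last bin, from 51000001, at 8.36% and 6.88%, where few sites were intermediate in either library.

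The lower share was present at each local density of covered sites. Sites were sorted by the number of sites in their 1000 bp with 10 or more calls in both libraries. This number also follows depth, since 66.2% of listed sites on chromosome 25 had such calls, against 77.7% elsewhere. The difference on chromosome 25 ran from -4.29 points at 40 or more such sites to -5.51 at 10 to 19. In the same classes the other autosomes had -0.882 and -1.22. The lower share was also present at each level of the surrounding 100 kb. In windows below 50% in the control it was -5.46 points, against -0.655 elsewhere. Windows from 50% to 65% gave -7.04 against -2.21, and those from 65% to 80% gave -6.50 against -1.37. In windows at 80% or more, where intermediate sites were fewest, it was -2.35 against -0.126.

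Followed site by site at equal calls, 51.2% of the 95282 sites that were intermediate in the control were intermediate again in the TGF-beta library. A further 31.6% were at 80% or more and 17.1% under 20%. On the other autosomes 65.8% were intermediate again, 22.04% were at 80% or more and 12.2% under 20%. Calls were equal between the libraries at a site, but not between chromosome 25 and the other autosomes, where sites had more calls. Few calls spread a measured level, and the part of depth in these shares was not tested. Sites at an end of the scale in the control became intermediate in slightly smaller shares than elsewhere. Of those under 20% in the control, 15.7% were intermediate in the TGF-beta library, against 16.5% on other autosomes, and of those at 80% or more 8.12%, against 9.62%. With 10 calls drawn, sites with no methylated call made up 10.1% in the control and 12.01% with TGF-beta, and fully methylated draws 31.7% and 35.2%. Each count from 2 to 8 methylated calls of 10 was less frequent in the TGF-beta library, with the largest differences at 8, at -1.33 points, and 7, at -1.24. On the other autosomes each count from 2 to 8 was also less frequent, by smaller amounts, with a difference of -0.944 points at 8. Counts of 1 and 9 differed by -0.201 and -0.490 points there, but by 0.064 and 0.154 on chromosome 25. Draws with no methylated call went from 12.2% to 12.9% on the other autosomes, and fully methylated draws from 28.2% to 30.4%.

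The difference was smaller over stretches of sequence than at single sites. Of the 29506 windows of 1000 bp with at least 5 sites and 50 calls in each library, 53.3% had a level from 20% to 80% in the control and 50.3% with TGF-beta. This difference of -2.92 points compares with -2.05 on the other autosomes.

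Stretches of chromosomes 3, 6 and 7 with low TGF-beta depth offer a comparison in the same libraries. At equal calls the intermediate share differed by -1.51 points in the stretch of chromosome 3 and by -0.669 in the rest of that chromosome. The values were -2.79 and -1.85 on chromosome 6, and -3.17 and -1.56 on chromosome 7. In each of these chromosomes the low stretch had the larger difference, and none reached that of chromosome 25. These stretches are chosen cases. Others of low ratio, with lowest running medians of -0.46 on chromosome 21 and -0.43 on chromosome 28, were not compared. Whether depth ratio and intermediate share have a common source was not tested.

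The average methylation of chromosome 25 was close in the libraries. Summed over calls it was 68.9% in the control and 70.8% with TGF-beta, against 65.8% and 67.4% on the other autosomes. The difference of 1.87 points ranked 30 of 38 from the lowest, and the mean of site levels, 68.1% and 68.6%, differed by 0.494 points, which ranked 26. The summed difference of the whole chromosome was larger than that of any segment. It was 0.644 points in the first (63.4% and 64.1%), 0.538 in the middle (62.4% and 62.9%) and 1.55 in the last (75.6% and 77.2%). The last segment, the most methylated, held 4847373 of the 10506649 control calls and 6547449 of the 12491031 TGF-beta calls, so it weighed more in the TGF-beta sum. By the mean of site levels, which gives each site the same weight, the segments differed by 0.790, 0.435 and 0.303 points. The larger summed difference of the last segment was not seen by that measure.

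The pattern of high and low domains along the chromosome was shared. Over the 516 windows the level in the control and with TGF-beta correlated with Pearson's r = 0.973, and r = 0.976 over the 21520 other windows, which share libraries and CpG content. Windows under 50% numbered 158 in the control and 144 with TGF-beta (30.6% and 27.9%, against 37.2% and 34.2% on the other autosomes). Of these, 94 and 82 lay in the first segment, 40 and 38 in the middle and 24 in each library in the last. Windows at 80% or more numbered 103 and 108 (20.0% and 20.9%, against 20.7% and 19.7%), with 54 in each library in the last segment. Levels ran from 27.3% to 94.4% in the control and from 26.6% to 95.5% with TGF-beta. The lowest control level was in the middle segment, from 36400001, at 27.3% and 26.6%, and the highest in the first, from 7400001, at 94.4% and 95.5%. These poles of the chromosome were at the same places in both libraries.

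A higher level in the TGF-beta library was found in 306 of the 516 windows, and 307 were higher by the mean of site levels. On the other autosomes 13031 of 21520 windows were higher, and 11968 by that mean. The median difference was 0.637 points, against 0.682 over the other autosomes. It was 1.27 points in the first segment, 0.336 in the middle and 0.268 in the last. Minus the median of autosomal windows of like CpG density it was 0.305, -0.360 and -0.331, so that none of the segments departed by 0.5 point. The log2 depth ratio and the difference in level of a window showed a Pearson's r of 0.10 over the 516 windows, which have libraries and depth in common.

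**Figure D5:**
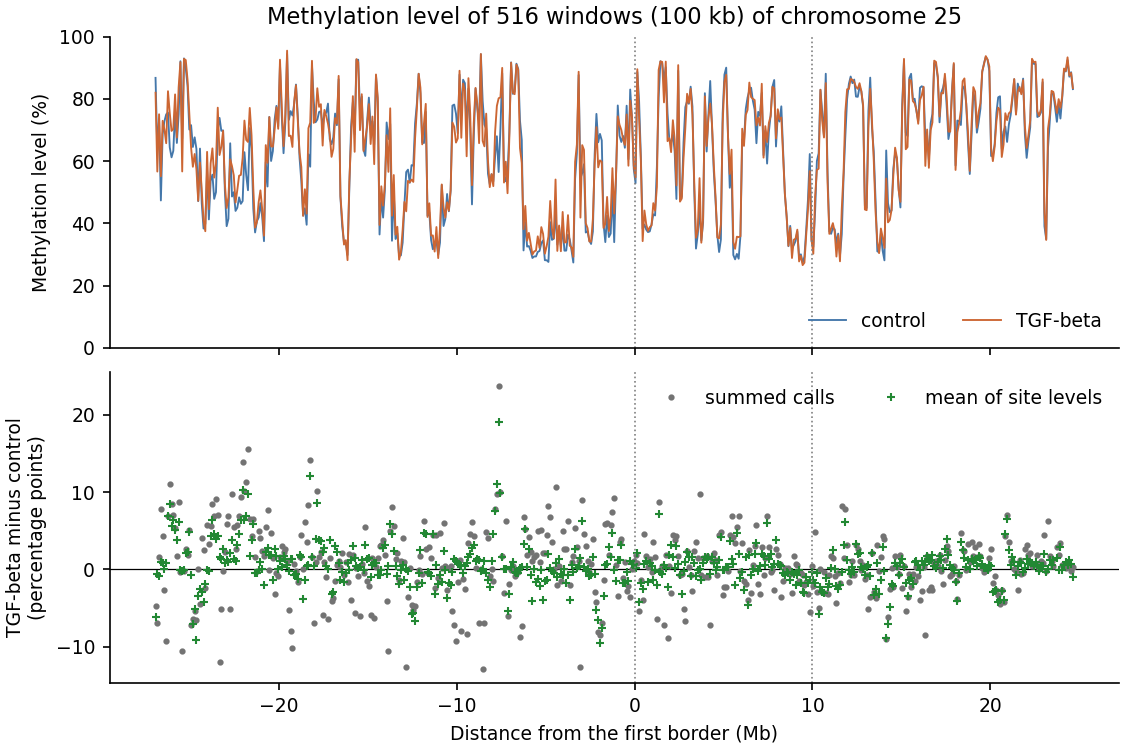
Methylation level of the 516 windows in the control and the TGF-beta library (upper panel) and the difference between them by summed calls and by the mean of site levels (lower panel), by distance from the first border, with dotted lines at both borders. The levels follow each other from 27.3% to over 90%, and the largest differences, up to 23.7 points, lie in the first segment.

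Windows that differed by 10 points or more, with at least 5 in the same direction on each strand, numbered 10 higher in the TGF-beta library (1.94%) and 6 lower (1.16%). Over all autosomal windows the shares were 2.38% higher and 1.47% lower. With windows of 50 kb the order turned, with 3.11% higher and 2.62% lower on chromosome 25 against 3.05% and 2.28% over all autosomes, so its side of the background depended on the window size. All 16 windows of 100 kb were in the first segment, where the 10 made up 3.70% of its 270 windows and the 6 made up 2.22%. Of the 10 that were higher, 10 had a higher mean of site levels, and 3 of them were also 10 points higher by that measure. Of the 6 that were lower, 1 had a lower mean of site levels, and no window was lower by 10 points by it. Over all autosomes, 506 of the 524 higher windows had a higher mean of site levels, 277 of them by 10 points. Of the 323 lower windows, 162 had a lower mean, 98 of them by 10 points. The 6 losses on chromosome 25, a small number, were thus seen in summed calls and mostly not in mean site levels.

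Gains came in 2 runs and in 4 single windows. The run from 19300001 to 19500000 was at 64.1% (63.5 to 64.7, over 28197 calls) in the control and 80.4% (79.9 to 80.9, over 25740 calls) with TGF-beta, and its mean site level from 65.8% to 79.7%. Its first window had the largest gain of the chromosome, from 56.5% to 80.2%, by 26.7 points on the plus and 20.3 on the minus strand. The run from 4900001 to 5300000, of 4 windows, went from 55.6% (55.1 to 56.0) to 68.1% (67.6 to 68.5), with a gain of 7.95 points in mean site level. The depths of these runs were 0.824 and 0.572, and 0.770 and 0.486, in the control and the TGF-beta library. The single window from 8700001 went from 58.2% to 72.4%, with a gain of 12.1 points in mean site level. The window from 22500001 was 10.7 points higher in summed calls and 0.848 higher by that mean.

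The largest loss was in the window from 18400001, at 79.3% and 66.5%, where the mean of site levels was 71.5% in both libraries. The window from 14100001 went from 56.5% to 43.9%, at 49.2% and 49.3% by the mean of site levels. In the middle segment no window passed the rule, and the largest differences were 9.76 points, from 30600001, and -8.88, from 28800001. In the last segment they were 8.16, from 38600001, and -9.02, from 41100001. The last of these also held by the mean of site levels, at -8.82 points, whereas the one from 38600001 was at -0.322.

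At the scale of 1000 bp, windows that differed by 20 points or more with at least 10 on each strand numbered 539 higher (1.83%) and 379 lower (1.28%) among the 29506 of chromosome 25. Over all autosomes 1.69% were higher and 1.00% lower. The chromosome had a like share of gains and a somewhat larger share of losses than the background. Its strands also differed by 10 points in opposite directions in 3.35% of windows, against 2.50% on other autosomes, and its windows had a median of 235 TGF-beta calls against 385. The part of this wider strand spread in the counts was not tested. By segment, 345, 100 and 94 windows were higher, or 2.67%, 1.77% and 0.857%, and 169, 83 and 127 were lower, or 1.31%, 1.47% and 1.16%. Gains were thus most frequent in the first segment, and the share of losses varied less. Depth and strand spread also differed by segment. The median TGF-beta calls per window were 191, 214 and 370. Strands differed by 10 points in opposite directions in 3.97%, 3.57% and 2.52% of windows. The bin from 19000001 held 53 of the gains, 10.1% of its windows, and the bin from 2000001 held 22 losses, or 4.32%.

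The windows named here had at least 10 sites, 200 calls in each library and a difference of 20 points also in mean site level, and are the largest of their segment. In the middle segment the window from 34678001 to 34679000 held 22 sites and was at 18.6% (14.1 to 23.8, 264 calls) in the control and 71.1% (66.4 to 75.5, 401 calls) with TGF-beta. This was the largest gain of the named windows. Further along, the window from 34713001 to 34714000 went the other way, from 92.4% (88.1 to 95.5) to 57.4% (52.3 to 62.4). In the last segment the window from 43558001 to 43559000 went from 40.7% to 82.3%, and that from 43245001 from 31.6% to 68.8%. The largest loss there was from 37325001 to 37326000, at 81.7% and 48.8%. In the first segment the window from 19263001 to 19264000, close to the run of gains there, went from 54.7% (47.6 to 61.7) to 89.8% (85.4 to 93.2). The largest loss of the named windows was from 1175001 to 1176000, from 65.6% (59.7 to 71.2) to 21.7% (17.4 to 26.5). It was seen on both strands, at -49.3 and -27.2 points.

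CpG-dense windows of 1000 bp, those listing 40 or more sites, stood in for CpG islands, and most of them lay in the last segment. It held 1911 of the 2480, where they made up 17.4% of windows, against 3.15% in the first and 2.89% in the middle. Dense windows of the last segment were mostly methylated, with a median level of 84.1% in the control and 85.4% with TGF-beta, and 2.88% of them were under 10% in the control. In the first segment the medians were 65.2% and 68.0% and 25.9% were under 10%. Over the chromosome the medians were 81.1% and 82.6%, against 75.6% and 76.5% on other autosomes. Of the 2480, 200 were under 10% in the control and 207 with TGF-beta, and 189 in both.

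Dense windows that passed the 20 point rule numbered 14 higher (0.565%) and 6 lower (0.242%), against 0.338% and 0.101% of all dense autosomal windows. These counts are small, at 5, 2 and 7 higher and 2, 1 and 3 lower by segment. As shares of the dense windows they were 1.23%, 1.23% and 0.366% higher, and 0.493%, 0.613% and 0.157% lower. The last segment thus had the lowest shares. The largest gain was from 48236001 to 48237000, at 35.8% (32.1 to 39.5, 668 calls) in the control and 66.6% (63.6 to 69.6, 971 calls) with TGF-beta, over 47 sites. The second was from 44262001 to 44263000, from 14.8% (11.8 to 18.2) to 44.2% (39.95 to 48.4). The largest loss was from 45697001 to 45698000, from 57.0% (53.2 to 60.7) to 24.3% (22.1 to 26.5). The next was from 46527001 to 46528000, from 48.0% to 22.8%. All 4 had the same direction on both strands and by the mean of site levels. They lie in the last segment, which held most of the dense windows.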

How the data were processed

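Each sample's deposited file lists CpG cytosines by position and strand with a count of methylated and a count of unmethylated calls. The submitters' processing notes give Bismark, Bowtie 0.12.8 and canFam3, but per the labels' protocols SOAPaligner2 aligned the reads, so which aligner made the files is unclear. Whether duplicates were removed, reads filtered or overlapping mates trimmed is not given in the sources used here. The deposited files hold no header, and the column of methylated counts was told from the mitochondria, where 0.211% of control and 0.329% of TGF-beta calls were in it.

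The line of each file that names no chromosome (12 and 6 calls) was left out. Longer runs of adjacent cytosines of odd number, which could not be split into pairs, were also left out (0.0068% of calls). Single cytosines without a listed partner were kept as sites. Both strands were listed for 89.2% of sites on chromosome 25 and 91.2% on other autosomes. Adjacent cytosines were summed into CpG sites, and levels are summed methylated calls over all calls. Intervals are exact Clopper-Pearson intervals at 95%, and those of medians are exact binomial order-statistic intervals. There is 1 library per group, so no test was run. The chromosome, its segments and all lists were chosen with earlier results of these data known.

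Named windows are, per segment, the 2 largest gains and losses, the 2 lowest and highest levels and depth ratios, the 5 windows on either side of each border, and for 1000 bp and CpG-dense windows the 2 largest gains and losses that pass the limits given. Runs of windows, bins of 1 Mb and the window above 1 in TGF-beta depth were picked after their values were seen. Alternatives were other depth references, strands, minimum calls, weights, window sizes and equal calls. The scripts, tested on simulated data, used numpy 2.4.6, pandas 2.3.3, scipy 1.17.1 and matplotlib 3.10.9 under Python 3.11.15.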

Additional observations from a re-analysis of the deposited data

How the results depend on the processing

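With 1 library per group nothing could be left out in turn, and a difference between libraries has no replicate check. No paired analysis was possible because each group has 1 library. Of 139 alternative values for 28 results, 65 stayed within the interval of the reported value, 74 moved beyond it and 0 changed sign. Only log2 ratios and differences could change sign, because depths, levels and counts cannot be negative. The sign also does not cover the order of the segments, which changed without matching on density. For relative depth the interval is that of the median over windows, and for levels and shares the binomial one. The binomial interval is narrow because it covers only the counting of calls for levels and of sites for shares. Segments are given in order along the chromosome.

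Without matching on CpG density, relative depth was 0.844 in the control and 0.568 with TGF-beta in the first segment, 0.682 in the TGF-beta library in the last, and the log2 ratios were -0.58 and -0.17. With chromosomes 3, 6, 7 and 25 left out of the reference, TGF-beta depth was 0.592 and 0.573 in the first and last, and the first log2 ratio -0.47. On the plus strand TGF-beta depth was 0.637, 0.636 and 0.615 and the log2 ratio -0.40 and -0.42 in the first and last. On the minus strand TGF-beta depth was 0.628 and 0.626 in the first and middle and the first log2 ratio -0.42, and the median of calls per site also gave -0.42 (-0.417) there.

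Levels in the control at sites of 10 or more calls were 64.1%, 63.1% and 76.4%, and in the TGF-beta library 64.6%, 63.5% and 77.7%, with differences of 0.456 in the first and 1.298 points in the last. At sites of 1 or more calls they were 62.9%, 62.0% and 75.2%, and 63.9%, 62.6% and 76.9%, with differences of 0.919 and 1.73 points. As the mean of site levels they were 61.8%, 60.7% and 74.9%, and 62.6%, 61.2% and 75.2%, with differences of 0.790, 0.435 and 0.303 points. On the plus strand they were 64.5%, 63.5% and 76.9%, and 65.2%, 63.9% and 78.2%, with differences of 0.379 in the middle and 1.28 in the last. On the minus strand they were 64.9%, 64.2% and 76.6%, and 65.2%, 64.98% and 77.9%, with differences of 0.251, 0.779 and 1.28 points. Differences of under 1 point thus depend on which sites are counted and how they are weighted.

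By the mean of site levels, 4 windows of 100 kb were higher (0.775%, against 1.298% over all autosomes) and 0 lower (against 0.558%) by 10 points, and 293 windows of 1000 bp were higher (0.993% against 0.936%) and 200 lower (0.678% against 0.477%) by 20. With windows of 50 kb, 32 were higher (3.11% against 3.05%) and 27 lower (2.62% against 2.28%), and with sites of 10 or more calls 2 of 100 kb were lower (0.388% against 1.22%). With equal calls the share of sites from 20% to 80% differed by -5.07 points and that at 80% or more by 3.24. The draws of 10 calls and the single strands were alternatives chosen after seeing the data. They gave -4.38 and 2.41 with 10 calls, -4.73 and 2.98 on the plus and -4.91 and 3.22 on the minus strand. Depth limits single sites, at a median of 17 and 21 calls, more than windows.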
